A study of Homo sapiens with 36 samples.

Results

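Small RNA sequencing of WI-38 cells, a line of human lung fibroblasts, listed counts for 6 mature miRNAs that are usually read as signs of endothelium, blood or liver. They were hsa-miR-126-3p, hsa-miR-126-5p, hsa-miR-486-5p, hsa-miR-486-3p, hsa-miR-451a and hsa-miR-122-5p, and they were taken by name from the 1508 miRNAs of the count table. The names were chosen from earlier results of these data and from what is known of each miRNA. The choice used the levels of hsa-miR-486-5p, hsa-miR-126-3p and hsa-miR-122-5p against untreated cells and between the inducers. Those differences, and the trends with day fitted to the same libraries, are therefore given as descriptions. Where such a value is said to pass a threshold or to be called, this is a description too, and nothing is concluded from it.

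The 36 libraries came from 18 conditions with 2 biological replicates each, all of the same cell line grown in medium with 10% foetal bovine serum. Proliferating untreated cells were the control (Ctrl). PMD-Sen cells, which become senescent after plasma membrane damage, had been kept for 24 h in the detergent SDS at 0.0095%. DDR-Sen cells, which become senescent through the DNA damage response, had been kept for 24 h in 250 nM doxorubicin (DXR). Cells of both series were taken daily from D0 to D4 and again on D6, D8 and D16, where D0 is the end of the treatment and the other days count from washout. Replicatively senescent cells (RS) were untreated cells passaged to a population doubling level of 54 to 56. In counts from total RNA, RNA made by the cells and RNA carried over from serum cannot be told apart, and neither can fewer cells of a kind and less RNA per cell.

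A mature miRNA is a short RNA strand that guides an Argonaute protein to partly complementary messenger RNAs, mostly through its seed, bases 2 to 8 from the 5′ end. The hairpin precursor has 2 arms, named 5p and 3p, and usually 1 of them is kept. miR-126 lies in the gene of the secreted endothelial protein EGFL7 and is known for promoting vascular growth signalling. miR-486 lies in ANK1, the gene of the erythrocyte membrane protein ankyrin, and is abundant in red blood cells and muscle. miR-451a is made next to miR-144, is cut by Argonaute 2 in place of Dicer, and is among the most abundant miRNAs of red blood cells. miR-122 dominates the miRNA pool of hepatocytes, and it is often measured in serum as a sign of liver injury.

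The mature sequences below are shown because they decide in which row of the table a read of miR-126 or miR-122 is counted. The sequences are from RefSeq on build GRCh38.p14 and are printed for 3 of the 6 names, and capitals mark the seed.
hsa-miR-126-3p: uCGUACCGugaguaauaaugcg
hsa-miR-126-5p: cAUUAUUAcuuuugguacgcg
hsa-miR-122-5p: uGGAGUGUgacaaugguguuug
The 3 seeds differed from each other, and 0 of the other mature miRNAs among the 2370 of that table shared any of them. Both arms of miR-126 come from the plus strand hairpin below, in which capitals mark the mature 5p and then the mature 3p.
MIR126 hairpin: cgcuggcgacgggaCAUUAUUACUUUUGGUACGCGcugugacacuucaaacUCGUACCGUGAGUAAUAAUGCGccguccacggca

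In the gene annotation on GRCh38, MIR126 spans chr9:136670602-136670686 on the plus strand and lies in an intron of EGFL7, a protein-coding gene of the same strand. MIR122 spans chr18:58451074-58451158 on the plus strand, inside an exon of the non-coding host transcript MIR122HG. MIR451A spans chr17:28861369-28861440 on the minus strand, and 92 bases separate it from MIR144 (chr17:28861533-28861618). MIR486-1 and MIR486-2 lie on opposite strands in an intron of ANK1, and the count table has 1 row for each arm, so the genes cannot be told apart.

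The libraries held 81670 to 1933442 counts with a median of 376989.5, and 1 count was worth 0.544 to 11.1 CPM, the unit in which a count is divided by the scaled library total. In PMD-Sen both D0 libraries were shallow (104440 and 81670 counts), while those of D16 held 1933442 and 440280 counts. Of the 1508 miRNAs, 360 passed the filter on low counts, and 3 members were among them. hsa-miR-486-5p had 6825 counts in all and ranked 116 by mean level, hsa-miR-126-3p had 1554 counts and ranked 202, and hsa-miR-122-5p had 1045 counts and ranked 212. The other members had 87 counts (hsa-miR-126-5p), 63 counts (hsa-miR-486-3p) and 31 counts (hsa-miR-451a). These 3 were below the filter and are described by their counts alone.

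All 8 miRNAs taken here as fibroblast markers had counts. Their summed level, in counts over the raw library total (raw CPM), lay between 64861 and 145096. That sum is mostly miR-21-5p and miR-22-3p, which had 1087200 and 199900 of the 1600540 counts of the list. The others ran from 1241 counts (miR-199b-5p) to 154438 counts (miR-143-3p). Blood cell markers were at or near 0. miR-144-5p, the erythroid neighbour of miR-451a, had 5 counts in all and 0 in 34 of the 36 libraries. The leukocyte markers miR-223-3p, miR-142-5p and miR-150-5p had 8, 3 and 16 counts in all, and their sum lay between 0 and 9.09 raw CPM. Among the liver markers, miR-885-5p had 18 counts in all against the 1045 of hsa-miR-122-5p.

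hsa-miR-486-5p, the more abundant arm of miR-486, had a higher mean on each DDR-Sen day and in RS than on any PMD-Sen day or in Ctrl. The Ctrl libraries held 202 and 195 CPM. The 16 PMD-Sen libraries lay between 134 and 497 CPM, with a median of 290.3 CPM. The 16 DDR-Sen libraries lay between 282 and 1108 CPM, with a median of 606 CPM, and the RS libraries held 1047 and 497 CPM. The ranges of the series thus overlapped over the whole course, but from D2 to D8 all 10 DDR-Sen libraries were above all 10 PMD-Sen libraries.

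In DDR-Sen, hsa-miR-486-5p climbed from D0 to D4 and was lower again at D16. It held 455 and 282 CPM at D0, 395 and 426 CPM at D1, 608 and 454 CPM at D2, 763 and 605 CPM at D3, and 1108 and 777 CPM at D4. It then held 835 and 652 CPM at D6, 858 and 635 CPM at D8, and 599 and 395 CPM at D16. Both D4 libraries were above both D0, D1, D2, D3 and D16 libraries. In PMD-Sen the same miRNA held 303 and 134 CPM at D0, 173 and 210 CPM at D2, 308 and 412 CPM at D8 and 227 and 357 CPM at D16. Its means there ran from 191 CPM at D2 to 360 CPM at D8, and both D8 libraries were above both D2 libraries. The D1 replicates of PMD-Sen were the farthest apart, at 205 and 497 CPM.

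**Figure D1:**
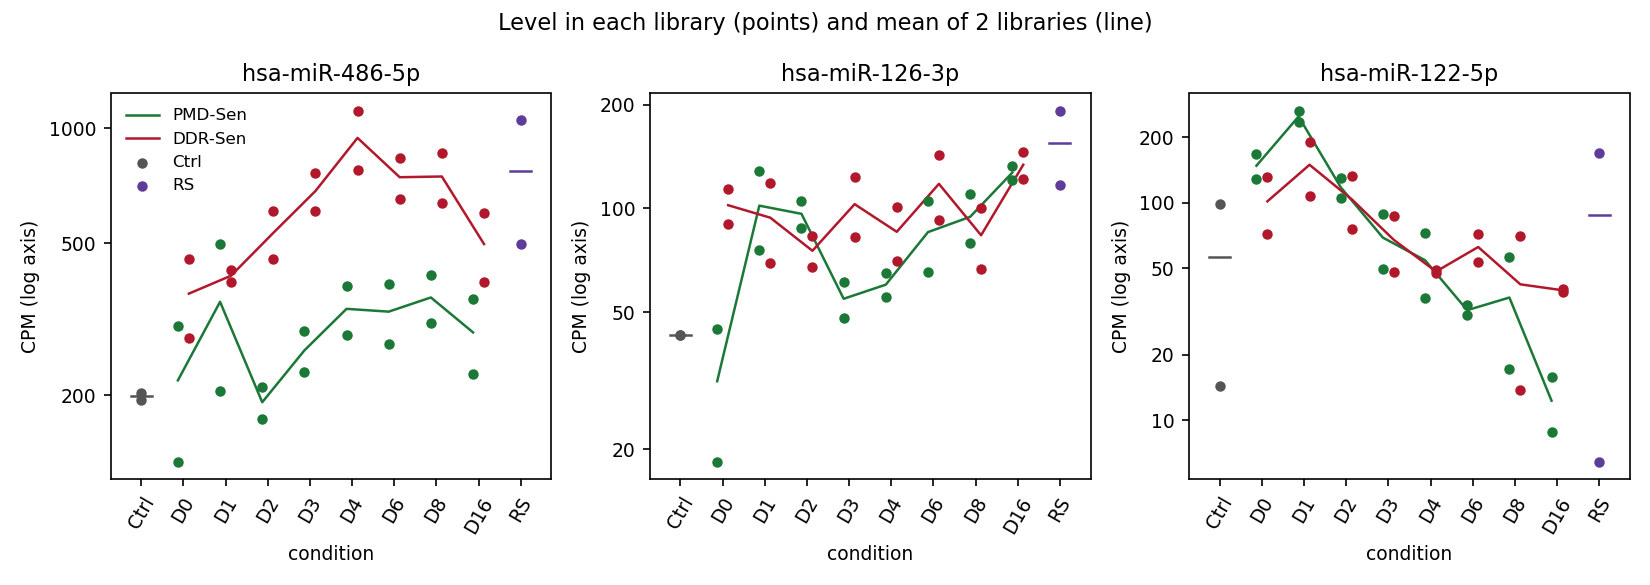
Level of hsa-miR-486-5p, hsa-miR-126-3p and hsa-miR-122-5p in CPM (log axis) in Ctrl, the 8 days of PMD-Sen and DDR-Sen, and RS. Points are single libraries and lines join the means of 2 libraries. hsa-miR-486-5p of DDR-Sen reaches 1108 CPM at D4, while hsa-miR-122-5p of PMD-Sen goes from 234 and 264 CPM at D1 to 15.8 and 8.81 CPM at D16.

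Against Ctrl, at the study's thresholds (p below 0.05 before adjustment, and more than 1 log2 unit of change), hsa-miR-486-5p passed upwards at 7 of the 8 DDR-Sen days and in RS, which is given as a description. The log2 fold change was 0.90 (SE 0.39) at D0, just below the limit, 1.05 (SE 0.39) at D1, 2.25 (SE 0.39) at D4 and 1.32 (SE 0.39) at D16, and it was 1.96 (SE 0.39) in RS. In PMD-Sen it was called at 0 of 8 days, with log2 fold changes from -0.06 at D2 to 0.86 at D8. DDR-Sen D1 no longer passed with total counts in place of TMM scaling (0.86), without its replicate 2 or without Ctrl replicate 2. DDR-Sen D0 passed without its replicate 2, and PMD-Sen D1, D6 (1.03) and D8 (1.06) passed without their replicate 1. These contrasts share the 2 Ctrl libraries and helped to choose the member, so the shares of all 360 tested miRNAs called up are given beside them and nothing is read from the comparison. Over the 17 contrasts with Ctrl the 3 members passed 20 times, 10 of them at an adjusted p below 0.05, where 9.9% and 4.56% of the 6120 values of all tested miRNAs passed in either direction. At the adjusted threshold hsa-miR-486-5p passed at DDR-Sen D3, D4, D6, D8 and D16 and in RS. hsa-miR-126-3p passed it at PMD-Sen D16, at DDR-Sen D6 and D16, and in RS. The shares called up were 2.22% at D0, 2.78% at D1, 1.67% at D2, 3.33% at D3, 4.17% at D4, 4.44% at both D6 and D8 and 8.33% at D16 of DDR-Sen, and 8.89% in RS.

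Set directly against PMD-Sen over D1 to D16, without the Ctrl libraries, hsa-miR-486-5p was higher in DDR-Sen by a log2 difference of 1.04 (SE 0.13, 14 libraries in each series), where the median of the 346 miRNAs tested was -0.07. At matched days both DDR-Sen libraries were above both PMD-Sen libraries on 6 of the 7 days, D1 being the exception. The matched-day log2 difference was smallest at D1 (0.27, SE 0.38) and largest at D4 (1.50, SE 0.37). The sign at D1 rested on 1 library: the value was -0.28 without PMD-Sen D1 replicate 1 and 0.999 without replicate 2. With 1 library left out at a time the pooled value lay between 1.005 and 1.16. The replicates of a number ran together: replicate 1 was the higher one on 7 of 8 DDR-Sen days, and replicate 2 on 7 of 8 PMD-Sen days. The difference was 1.52 (SE 0.12) over the libraries of replicate number 1 and 0.64 (SE 0.18) over those of number 2, so it had the same direction in both sets and the SE of the pooled value does not cover the gap between them.

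For hsa-miR-126-3p the pooled difference over D1 to D16 was 0.12 (SE 0.15) and for hsa-miR-122-5p it was 0.10 (SE 0.23). Neither sign was stable. When thinned to the smallest total, in a single random draw of counts, the values were -0.004 and -0.19. With total counts that of hsa-miR-122-5p was -0.02. At D0, which the pooled value leaves out, hsa-miR-126-3p was higher in DDR-Sen by 1.73 (SE 0.57), where the PMD-Sen libraries held 2 and 4 counts of it. It no longer passed the thresholds when thinned to the smallest total (0.97) or without PMD-Sen D0 replicate 1 (1.18), and it was 2.45 without PMD-Sen D0 replicate 2.

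**Figure D2:**
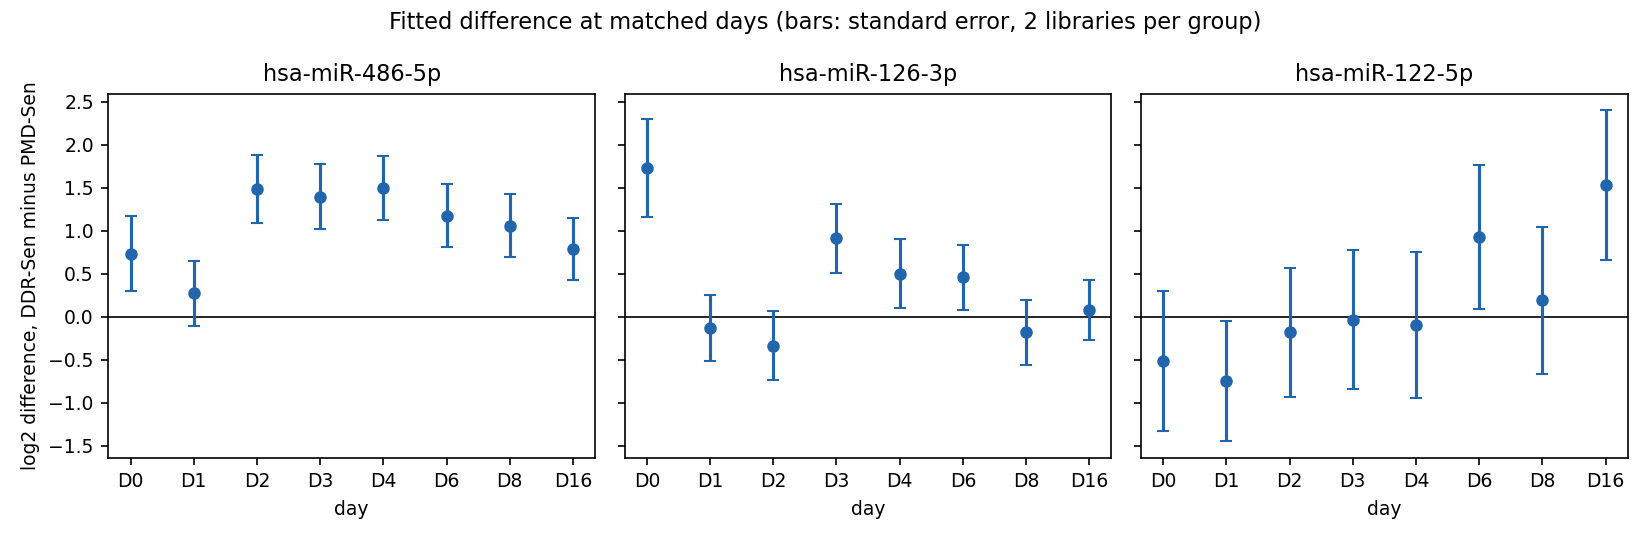
Fitted log2 difference, DDR-Sen minus PMD-Sen, at each of the 8 days for the 3 members past the filter. Points are the estimates from 2 libraries per group and bars their standard errors. hsa-miR-486-5p runs from 0.27 at D1, where it turns to -0.28 without PMD-Sen replicate 1, to 1.50 at D4, while hsa-miR-122-5p goes from -0.75 at D1 to 1.53 at D16. With 1 library left out the hsa-miR-122-5p value lies between -1.2 and -0.29 at D1 and between 1.31 and 2.13 at D16.

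The change with time within a series was fitted in edgeR without the Ctrl libraries as a trend, the log2 change per doubling of day + 1. For hsa-miR-486-5p the trend over the 16 DDR-Sen libraries was 0.21 (SE 0.09). It was 0.36 without D16 and 0.10 without D0, and it lay between 0.13 (without D0 replicate 2) and 0.29 (without D16 replicate 2) with 1 library left out. The size of this trend thus depended on the first and the last day. In PMD-Sen the trend was 0.13 (SE 0.09), and the difference of the trends, DDR-Sen minus PMD-Sen, was 0.11 (SE 0.13). Leaving out 1 library gave 0.07 (without D0 replicate 2) to 0.21 (without D1 replicate 2) for the PMD-Sen trend. For the difference it gave 0.0096 (without PMD-Sen D1 replicate 2) to 0.18 (without DDR-Sen D16 replicate 2).

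hsa-miR-486-3p, the arm of miR-486 that is mostly discarded, had most of its few counts in DDR-Sen and RS. It had 1 count in the Ctrl libraries, 12 counts in the 16 PMD-Sen libraries, 39 counts in the 16 DDR-Sen libraries and 11 counts in the 2 RS libraries. It was at 0 in 8 PMD-Sen libraries and in 1 DDR-Sen library. Summed over D1 to D16, its rate was 5.74 raw CPM in DDR-Sen (95% exact Poisson interval 4.02 to 7.95) and 1.58 raw CPM in PMD-Sen (0.79 to 2.83). By condition mean, DDR-Sen D2 held 11.7 CPM, on 8 and 1 counts, and RS held 10.8 CPM. Among the summed groups the highest rate was in RS, at 10.3 raw CPM (5.17 to 18.5), and its interval overlapped that of DDR-Sen. These intervals cover counting error only, and the row was below the filter, so the difference was not tested over samples.

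The 3p arm made up 0.915% of all miR-486 counts (exact binomial 95% interval 0.704 to 1.17). The share was 0.579% (0.300 to 1.01) in PMD-Sen, 0.990% (0.705 to 1.35) in DDR-Sen and 1.45% (0.726 to 2.58) in RS, and these intervals overlap. They too cover counting error only.

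hsa-miR-451a, the red blood cell miRNA, was close to absent, and its rate was alike in both series. It had 31 counts in all, at most 4 in a library, and it was at 0 in 19 of the 36 libraries. The PMD-Sen libraries of D1 to D16 held 15 counts, or 2.16 raw CPM (1.21 to 3.56), and the DDR-Sen libraries held 14 counts, or 2.23 raw CPM (1.22 to 3.75). The RS libraries, in which hsa-miR-486-5p stood at 1047 and 497 CPM, held 0 counts of hsa-miR-451a, and the upper bound of that rate was 3.47 raw CPM. miR-144-5p likewise had 0 counts in Ctrl, PMD-Sen and RS and 5 counts in DDR-Sen.

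**Figure D3:**
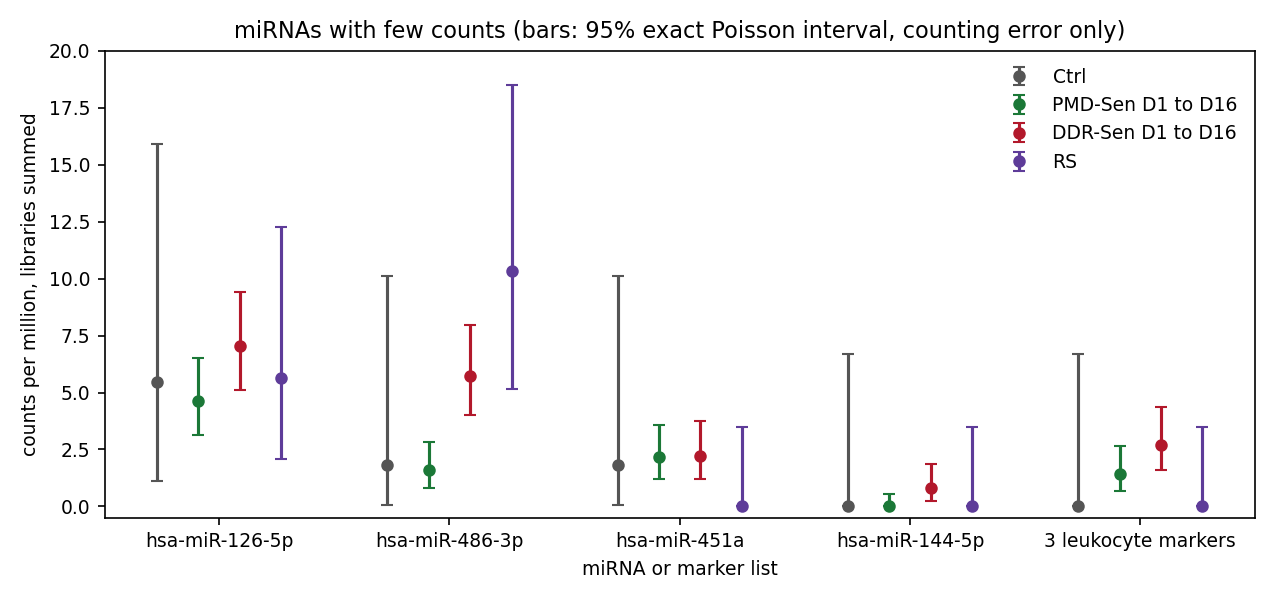
Raw CPM of 3 members with few counts, of miR-144-5p and of the 3 leukocyte markers with counts, with the libraries of a group summed. Bars are 95% exact Poisson intervals and cover counting error only. hsa-miR-486-3p is at 5.74 raw CPM in DDR-Sen and 1.58 in PMD-Sen, while hsa-miR-451a is at 2.23 and 2.16 raw CPM.

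hsa-miR-126-3p, the abundant arm of the endothelial miR-126, had its lowest means in Ctrl and at D0 of PMD-Sen, and a higher mean in each of the other 16 conditions. The Ctrl libraries held 43.0 and 42.9 CPM, from 10 and 15 counts. The 16 DDR-Sen libraries lay between 66.6 and 146 CPM, with a median of 96.4 CPM, so that all of them were above both Ctrl libraries. The 16 PMD-Sen libraries lay between 18.4 and 133 CPM, with a median of 77.3 CPM, and the RS libraries held 117 and 192 CPM.

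By the condition means, hsa-miR-486-5p was highest at D4 in DDR-Sen and at D8 in PMD-Sen, and hsa-miR-126-3p at D16 in both. The shapes were not tested against each other. Of hsa-miR-126-3p, PMD-Sen held 18.4 and 44.6 CPM at D0, on 2 and 4 counts. It then held 128 and 75.4 CPM at D1 and 61.1 and 48.1 CPM at D3. It returned to 79.2 and 110 CPM at D8 and to 133 and 121 CPM at D16. DDR-Sen held 90.1 and 114 CPM already at D0, 82.9 and 67.6 CPM at D2, 143 and 92.4 CPM at D6 and 122 and 146 CPM at D16. The D16 libraries of the 2 series overlapped, and all 4 lay between the RS libraries.

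Against Ctrl, hsa-miR-126-3p passed the study's thresholds at 4 of 8 PMD-Sen days (D1, D2, D8 and D16), at 5 of 8 DDR-Sen days (D0, D1, D3, D6 and D16) and in RS. The log2 fold change at D16 was 1.56 (SE 0.41) for PMD-Sen and 1.64 (SE 0.42) for DDR-Sen, and that of RS was 1.85 (SE 0.41). With each of the 4 libraries of a contrast left out in turn, the calls at PMD-Sen D2, PMD-Sen D8 and DDR-Sen D1 were kept in 2 of 4 omissions, those at PMD-Sen D1 and DDR-Sen D3 in 3, and the other 5 in all 4. The value at PMD-Sen D1 went from 1.28 to 0.81 and that at DDR-Sen D1 from 1.15 to 0.74 without replicate 1 of that day. With the libraries thinned to the smallest total, PMD-Sen D1, D8 and D16 and DDR-Sen D0 and D3 no longer passed. DDR-Sen D1 no longer passed with total counts (0.96), nor did PMD-Sen D2 in a fit of its 4 libraries alone. The values just outside the limit were 0.97 at PMD-Sen D6, 0.996 at DDR-Sen D4 and 0.94 at DDR-Sen D8. Each of these passed without replicate 1 of its day, and PMD-Sen D6 also passed with total counts, with no filter and when thinned (1.57). In PMD-Sen the share of the 360 tested miRNAs called up was 2.22% at D0, 4.44% at D1, 3.06% at D2, 1.11% at D3, 2.78% at both D4 and D6, 5% at D8 and 6.67% at D16. Nothing is read from this comparison either, for the reason given above.

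The trend of hsa-miR-126-3p with day was 0.27 in PMD-Sen (SE 0.11) and 0.08 in DDR-Sen (SE 0.08), and the difference of the trends, DDR-Sen minus PMD-Sen, was -0.16 (SE 0.13). The DDR-Sen trend turned to -0.07 without D16 and lay between 0.01 and 0.11 with 1 library left out. The difference turned to 0.02 when thinned to the smallest total and lay between -0.27 and -0.11 with 1 library left out. In PMD-Sen leaving out 1 library moved the trend between 0.21 (without D0 replicate 1) and 0.37 (without D1 replicate 1). It was 0.18 without D16, and 0.14 with every library thinned to the smallest total.

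hsa-miR-126-5p, the other arm of the hairpin printed above, had 87 counts, was at 0 in 9 libraries and reached at most 15 counts, in a D16 library of PMD-Sen. It was at 0 in 7 PMD-Sen libraries and in 1 DDR-Sen library. Its rate over D1 to D16 was 4.61 raw CPM in PMD-Sen (3.15 to 6.50) and 7.02 raw CPM in DDR-Sen (5.10 to 9.42), with overlapping intervals. Of the 32 counts behind the PMD-Sen rate, 20 were from D16. The medians of the single libraries of D1 to D16 were 2.19 CPM in PMD-Sen and 7.81 CPM in DDR-Sen. At D16 the rate was 8.43 raw CPM in PMD-Sen (5.15 to 13.0) and 11.2 raw CPM in DDR-Sen (5.36 to 20.5). The 5p arm made up 5.30% of all miR-126 counts (4.27 to 6.50), with 4.44% (3.06 to 6.21) in PMD-Sen, 6.41% (4.73 to 8.45) in DDR-Sen and 3.45% (1.28 to 7.35) in RS. The share of the minor arm was thus larger in miR-126 than in miR-486 when all libraries were summed, and within miR-126 the groups overlapped. The intervals of these shares cover counting error only, and the difference was not tested over samples.

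hsa-miR-122-5p, the hepatocyte miRNA, had its highest means on D0 to D2 and its lowest ones later in both series. PMD-Sen held 129 and 167 CPM at D0, 234 and 264 CPM at D1 and 105 and 130 CPM at D2. It then held 49.5 and 88.7 CPM at D3, 36.4 and 72.3 CPM at D4, 33.7 and 30.4 CPM at D6, 17.2 and 56.1 CPM at D8, and 15.8 and 8.81 CPM at D16. All 6 libraries of D0 to D2 were above all 10 libraries of D3 to D16. hsa-miR-126-3p had its highest mean of the same series at D16.

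In DDR-Sen hsa-miR-122-5p was also highest at D1 by the mean. It held 131 and 72.0 CPM at D0, 108 and 191 CPM at D1 and 75.4 and 132 CPM at D2. It then held 47.9 and 87.0 CPM at D3, 49.1 and 47.4 CPM at D4, 71.6 and 53.6 CPM at D6, 13.7 and 70.6 CPM at D8, and 38.9 and 40.3 CPM at D16. The libraries of D0 to D2 (72.0 to 191 CPM) and of D3 to D16 (13.7 to 87.0 CPM) overlapped here.

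The trend of hsa-miR-122-5p was -1.02 on the log2 scale per doubling of day + 1 in PMD-Sen (SE 0.13, 16 libraries) and -0.49 in DDR-Sen (SE 0.11, 16 libraries). The high level at PMD-Sen D1 and the low level at D16 were known when the member was chosen, and both belong to this trend. Without D16, a fit that still holds D1, the PMD-Sen value was -0.94 and the DDR-Sen value -0.56. With 1 library left out it lay between -1.14 and -0.95 in PMD-Sen and between -0.59 and -0.43 in DDR-Sen. With every library thinned to the smallest total, which evens out the depth between days, the PMD-Sen trend was -0.98. Of all miRNAs fitted, 17% were called down in the PMD-Sen trend and 17.9% in the DDR-Sen trend at an adjusted p below 0.05, and nothing is read from these shares for the member.

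The difference of these trends, DDR-Sen minus PMD-Sen, was 0.57 (SE 0.18, 32 libraries), where 7.06% of the 354 miRNAs fitted were called up. The difference was called in this fit, but not without D16 (0.42) or when thinned to the smallest total (0.54). It stayed called in 22 of 32 omissions of 1 library. With 1 library left out it lay between 0.47 (without PMD-Sen D1 replicate 2) and 0.67 (without PMD-Sen D0 replicate 1).

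Among the 3 members past the filter, the replicates of hsa-miR-122-5p differed most. The Ctrl libraries held 98.8 and 14.3 CPM, on 23 and 5 counts, and the RS libraries held 169 and 6.44 CPM, on 71 and 4 counts. The fold between replicates had a median of 1.78 over the 18 conditions and reached 26.3 in RS, 6.91 in Ctrl, 5.14 at DDR-Sen D8 and 3.25 at PMD-Sen D8. It was at most 2.42 for hsa-miR-486-5p and 2.43 for hsa-miR-126-3p in any condition. In the fit the biological coefficient of variation of hsa-miR-122-5p was 51.2%, rank 8 of 360, against 25.0% for hsa-miR-486-5p and 21.7% for hsa-miR-126-3p. In the same pair of Ctrl libraries hsa-miR-486-5p differed 1.04-fold and hsa-miR-126-3p differed 1.00-fold.

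**Figure D4:**
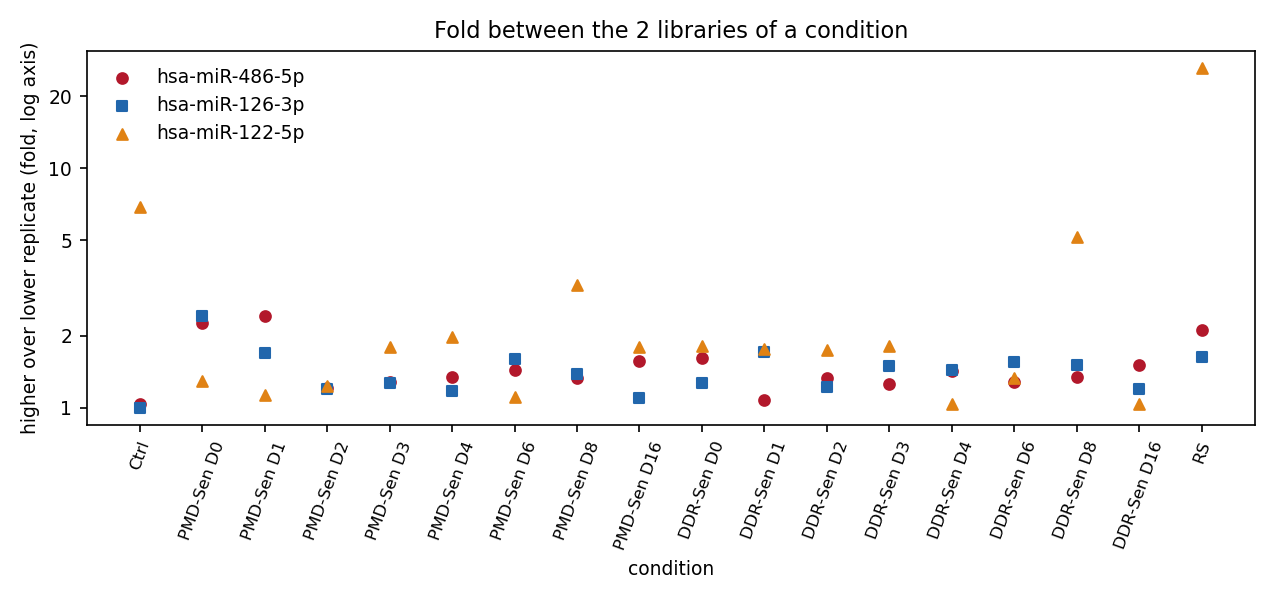
Fold between the higher and the lower replicate (log axis) in each of the 18 conditions for 3 members. Each point is 1 condition with 2 libraries. hsa-miR-122-5p reaches 26.3 in RS and 6.91 in Ctrl, while the other members stay at or below 2.43.

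Values of hsa-miR-122-5p against Ctrl or RS therefore depend on which library is used. Against Ctrl it was called up at PMD-Sen D1 (log2 fold change 2.24, SE 0.81) and down at PMD-Sen D16 (-1.93, SE 0.90), where 10.3% of the 360 tested miRNAs were called down. Without Ctrl replicate 1 the D16 value was -0.08, and the call was also lost without either D16 library. Without Ctrl replicate 2 the D1 value was 1.33 and no longer called, while without Ctrl replicate 1 it was 4.09. RS minus Ctrl was 0.68 (SE 0.82) with all libraries, -2.96 without RS replicate 1 and 2.53 without Ctrl replicate 1. The processing moved these calls as well. With the libraries thinned in a single random draw to the smallest total, PMD-Sen D16 against Ctrl was -1.72 and not called. RS minus Ctrl was then 2.50 and called. With no filter, PMD-Sen D0 and D2 and DDR-Sen D0 and D1 were also called up against Ctrl. Of the 8 other settings, 6 left PMD-Sen D0 and DDR-Sen D0 uncalled, and 5 left PMD-Sen D2 and DDR-Sen D1 uncalled. DDR-Sen D2 stayed uncalled in 6 of the 8 and was called up in the rest. RS minus PMD-Sen D16 was 2.61 (SE 0.83), and -1.04 without RS replicate 1. By single libraries, both Ctrl libraries were below all 6 PMD-Sen libraries of D0 to D2 and both DDR-Sen D1 libraries, and both RS libraries were below both PMD-Sen D1 libraries. On all other days the time courses overlapped with Ctrl and with RS.

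The order of the 18 conditions can be read only coarsely. For hsa-miR-486-5p the highest mean was at DDR-Sen D4 (942 CPM) and the lowest at PMD-Sen D2 (191 CPM), and all 17 pairs of neighbours in the order had overlapping replicates. For hsa-miR-126-3p the order ran from RS (154 CPM) to PMD-Sen D0 (31.5 CPM), with overlap in 15 of 17 pairs. For hsa-miR-122-5p it ran from PMD-Sen D1 (249 CPM) to PMD-Sen D16 (12.3 CPM), also with overlap in 15 of 17 pairs. By rank, the condition means of the 3 members were only weakly related, and a common course was not tested. Over the 18 condition means Spearman's rho was -0.23 between hsa-miR-486-5p and hsa-miR-122-5p, 0.36 between hsa-miR-486-5p and hsa-miR-126-3p, and -0.24 between hsa-miR-122-5p and hsa-miR-126-3p, as a description of points that share libraries and scaling.

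The tested miRNAs whose course over the 18 condition means was most like that of hsa-miR-486-5p were miR-30c-5p (rho 0.84), the joint row of miR-151a-5p and miR-151b (0.81) and miR-107 (0.77). miR-30c-5p had 1595 CPM in Ctrl, 2618 CPM at PMD-Sen D16, 3292 CPM at DDR-Sen D16 and 1973 CPM in RS. In RS it was thus lower than at PMD-Sen D16 by the mean, whereas hsa-miR-486-5p was higher (772 against 292 CPM). The course of hsa-miR-122-5p was most like that of miR-23a-5p (0.85), miR-132-3p (0.83) and miR-214-3p (0.80). miR-214-3p, one of the fibroblast markers above, had 3053 CPM in Ctrl, 2120 CPM at PMD-Sen D16, 2040 CPM at DDR-Sen D16 and 2036 CPM in RS. The nearest to hsa-miR-126-3p were miR-369-5p (0.73), miR-337-5p (0.66) and miR-29c-3p (0.63).

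At the late stage the 3 senescent states stood as follows. RS minus PMD-Sen D16 was 1.42 (SE 0.36, and 0.79 without RS replicate 1) for hsa-miR-486-5p and 0.29 (SE 0.35) for hsa-miR-126-3p. RS minus DDR-Sen D16 was 0.63 (SE 0.36) and 0.21 (SE 0.35) for the same members. Leaving out 1 RS library moved the hsa-miR-486-5p value against DDR-Sen D16 to 0.0066 (without replicate 1) or 0.95 (without replicate 2). Without RS replicate 2 the hsa-miR-126-3p values turned to -0.23 against PMD-Sen D16 and -0.33 against DDR-Sen D16. The replicates of RS and DDR-Sen D16 overlapped for hsa-miR-486-5p, while both RS libraries (1047 and 497 CPM) were above both PMD-Sen D16 libraries (227 and 357 CPM). For hsa-miR-126-3p all 3 states overlapped.

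In the epithelial and muscle lists a few miRNAs held most of the counts, and the others were at or near 0. The epithelial markers had 797 counts in all, of which miR-200c-3p had 534 and miR-200b-3p had 234. miR-200a-3p, miR-141-3p, miR-429, miR-203a-3p and miR-205-5p had 6, 2, 5, 13 and 3 counts. The sum of the list lay between 16.1 and 173 raw CPM. The striated muscle markers had 223 counts, of which miR-1-3p had 172. miR-499a-5p, miR-133a-3p and miR-206 had 28, 15 and 8 counts, and miR-133b, miR-208a-3p and miR-208b-3p had 0. The muscle list summed to 4.47 to 12.2 raw CPM in Ctrl and 0 to 25.1 in PMD-Sen. In DDR-Sen the sum was 3.21 to 34.3, and the RS libraries held 26.6 and 44.7. hsa-miR-486-5p is abundant in muscle as well as in red blood cells. A link between its level and these sums, which were mostly miR-1-3p, was not tested. Whether RNA from other cells or from serum took part in any of these differences was not tested.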

How the data were processed

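Per the study's methods, libraries were made from 100 ng of total RNA with 17 PCR cycles, and reads were processed by the authors with exceRpt 4.6.2 and aligned to GRCh38 and miRBase. The deposited values are expected counts per mature miRNA, not normalized, and 1003 of 54288 were not whole. They were rounded to whole counts here. All 36 columns were assigned to samples by their labels. The miRNAs were tested with edgeR 4.0.16 (R 4.3.3), TMM scaling, filterByExpr by condition and the quasi-likelihood test with Benjamini-Hochberg adjustment. Contrasts between conditions used all 36 libraries, the pooled difference of the series over D1 to D16 used 28, trends used the 16 libraries of a series against log2(day + 1), and their difference used 32. CPM used TMM-scaled totals, and rates summed raw totals. The script was tested on simulated data. Alternatives were DESeq2 1.42.0, other scalings, filters, a replicate block, thinning, days left out, libraries left out (with the filter of the full set) and, chosen after seeing the data, the series difference within each replicate number. Thinned values come from a single random draw of counts from each library, and the draw was not repeated. The members, marker lists and tests were chosen with earlier results of these data known. Besides the members, the text names marker miRNAs and, for each tested member, the 3 miRNAs with the highest Spearman rho over condition means. The labels call the replicates biological, and p-values of contrasts between conditions measure the spread between them. In the trend fits the spread also holds departures of the days from the line. In the pooled fit it also holds changes of the series difference from day to day. Both treat the libraries of different days as independent.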

Additional observations from a re-analysis of the deposited data

Results flagged for a closer look

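The trend of hsa-miR-122-5p with day was higher in DDR-Sen than in PMD-Sen by 0.566 on the log2 scale per doubling of day + 1 (SE 0.180), and it is listed because the fitted difference between the series passed the adjusted threshold in edgeR. The member was chosen with its levels in both series known, so the value is a description and supports nothing. It no longer passed without D16 (0.4192), when thinned (0.5424) and in 10 of the 32 omissions of 1 library. Those were either replicate of PMD-Sen D1 and D16 and of DDR-Sen D0, replicate 1 of PMD-Sen D8 and of DDR-Sen D1 and D2, and replicate 2 of DDR-Sen D8. Both trends were downward, -1.02 in PMD-Sen and -0.49 in DDR-Sen, and at D16 the PMD-Sen libraries held 15.8 and 8.81 CPM against 38.9 and 40.3 CPM in DDR-Sen. The groups of 2 libraries were too small to be searched for single outlying samples.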

How the results depend on the processing

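The values below helped to choose the members or share their libraries, so passing a threshold ("called") is given as a description. The trend of hsa-miR-122-5p was -1.29 to -0.94 under the 9 other settings in PMD-Sen and -0.66 to -0.47 under the 8 that gave a value in DDR-Sen, where the thinned libraries left it below the filter. The hsa-miR-486-5p difference of the series over D1 to D16 was 0.92 to 1.08 under 7 settings, and 1.519 and 0.6384 over the libraries of replicate number 1 and 2, a split added after seeing the data.

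The trend of hsa-miR-486-5p in DDR-Sen, 0.208 and not called, was called with DESeq2 size factors (0.2074), total counts (0.2161), no filter (0.2031), the DESeq2 Wald test (0.2114), the replicate block (0.2086) and without D16 (0.3599), and it was 0.1035 without D0. Leaving out 1 library gave 0.1304 to 0.2919 for it (called without D4 replicate 1 or either D16 replicate), 0.2063 to 0.3696 for the hsa-miR-126-3p trend in PMD-Sen (called without D1 replicate 1, either D2 replicate or D4 replicate 2), -0.0003736 to 0.2473 for the hsa-miR-122-5p series difference and 0.4713 to 0.6672 for its difference of trends. The latter was no longer called when thinned (0.5424) and without D16 (0.4192). Values that were not called changed sign for the hsa-miR-122-5p series difference with total counts (-0.02096) and thinned (-0.1926). When thinned, the hsa-miR-126-3p series difference was -0.004007 and its difference of trends 0.02092, and its DDR-Sen trend without D16 was -0.06529. The causes were not tested.

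The 20 calls against Ctrl became 10 at an adjusted p below 0.05. At the unadjusted threshold the count lay between 19 and 25 under the 8 other settings (25 with no filter) and between 15 and 25 with 1 library left out. Without RS replicate 1, hsa-miR-122-5p reversed in RS against Ctrl (-2.963), minus PMD-Sen D16 (-1.044) and minus DDR-Sen D16 (-2.569). With other libraries left out these values reached 2.532, 3.529 and 1.952. Over all miRNAs, same-numbered replicates deviated together unevenly: r lay between -0.458 and 0.366 over 153 pairs of conditions (median 0.042, above 0.1 in 53), with medians of 0.147 within PMD-Sen and 0.026 within DDR-Sen. Since many pairs were below 0.1, the number was not taken as a pairing. A block common to both series cannot take up deviations that run in opposite directions, as those of hsa-miR-486-5p did. The replicate block changed no other call of these results. The arm test between the series was not run because neither minor arm passed the filter. Depth limits hsa-miR-451a, hsa-miR-486-3p and hsa-miR-126-5p to counts.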
